A study of Mus musculus with 10 samples.

Results

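Dppa3, Dppa4, Dppa5a, Ooep, Fbxo15, Tcl1, Eras and Gdf3 are genes of oocytes, early embryos and pluripotent cells that were followed here, probe by probe, across 5 mouse cell populations. The 8 genes were taken by symbol, from 16593 genes with a probe. They are represented by 13 of the 25697 probes of an Illumina bead array. Dppa4 and Dppa5a have 3 probes each, Tcl1 has 2 and the other genes 1. The populations were piPS-2F, induced pluripotent cells obtained from neural stem cells by overexpression of Oct4 and Klf4, then pESC-B, a parthenogenetic embryonic stem cell line after a sort on SSEA-1, a carbohydrate antigen of the cell surface, female embryonic stem cells labelled OG2 (fESC), parthenogenetic neural stem cells (pNSC) and female neural stem cells (fNSC). The piPS-2F cells are labelled parthenogenetic, and the series describes them as made from parthenogenetic neural stem cells. Parthenogenesis is development from an unfertilised egg, so such cells hold maternal chromosomes only. Each population was measured on 2 arrays. The series speaks of samples run in duplicate, so the p-values measure the spread between duplicate arrays, which may be technical. The number of clones behind a line, the age of the animals and the culture conditions are not given in the sources used here. In piPS-2F replicate 2 a single label reads Klf5 in place of Klf4.

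The members share a history as transcripts that mark the pluripotent state. Dppa3, also called Stella, is stored in the egg and protects the maternal genome from loss of DNA methylation after fertilisation. Ooep belongs to the subcortical maternal complex of the oocyte, and its protein carries a KH-type domain related to that of Dppa5a. Dppa4 is a chromatin-bound protein that works as a partner of Dppa2. Fbxo15 encodes an F-box protein of SCF ubiquitin ligases and is a well-known target of Oct4 and Sox2. Tcl1 is a coactivator of the kinase Akt, Eras is a Ras-like protein that is active without a stimulus and drives the growth of embryonic stem cells through phosphoinositide 3-kinase, and Gdf3 is a ligand of the TGF-beta family. All members other than Ooep were among the candidate genes screened in the original search for reprogramming factors.

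Between 9938 and 11837 probes were detected per array, at a detection p under 0.01. Arrays of the parthenogenetic pluripotent lines were dim, with mean intensities of 287 to 327, against 476 to 625 for fESC, pNSC and fNSC. Any comparison between these 2 sets of lines therefore also sets dim against bright arrays. Line and brightness cannot be told apart there. Of 10 tested pluripotency markers, all were detected on every piPS-2F, pESC-B and fESC array and between 0 and 2 on the arrays of pNSC and fNSC. Markers were tested only if both arrays of some group detected them. The untested pluripotency marker Nr0b1 was undetected in piPS-2F and pESC-B and was detected on 1 array of fESC. All 10 tested neural stem cell markers were detected on every array of pNSC and fNSC. Among the untested neural markers, Pax6 was undetected in all 5 groups. As these are bulk samples, fewer cells of a type and less RNA per cell cannot be told apart. Signals are given as log2 values after background correction with an offset of 16 and quantile normalization. To be called higher or lower, a probe had to differ by 2-fold or more with an adjusted p under 0.05, from limma with Benjamini-Hochberg adjustment over 13564 probes.

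Every member gene was high in the pluripotent lines and at or near background in the neural ones, by at least 1 of its probes. Of the 13 probes, 12 passed the filter on dim probes, through the pluripotent groups alone for 11 of them. A probe that passes in this way had to differ, so the counts describe the probes and support nothing further. In piPS-2F against pNSC, 11 probes of all 8 genes were called, all of them higher, where 26.8% of all tested probes were called higher. In pESC-B against pNSC, 11 were higher (background 25.1%), and in fESC against fNSC 12 were higher (background 23.5%). The comparisons of piPS-2F and of pESC-B with pNSC share the pNSC arrays. Among all called probes in these comparisons, 51.1%, 50.4% and 49.9% were higher, and with median scaling in place of quantiles 32.2%, 34.6% and 39.9%. Median scaling moved the median over all probes to -0.46, -0.35 and -0.19 and changed none of the calls of member probes in these comparisons.

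**Figure D1:**
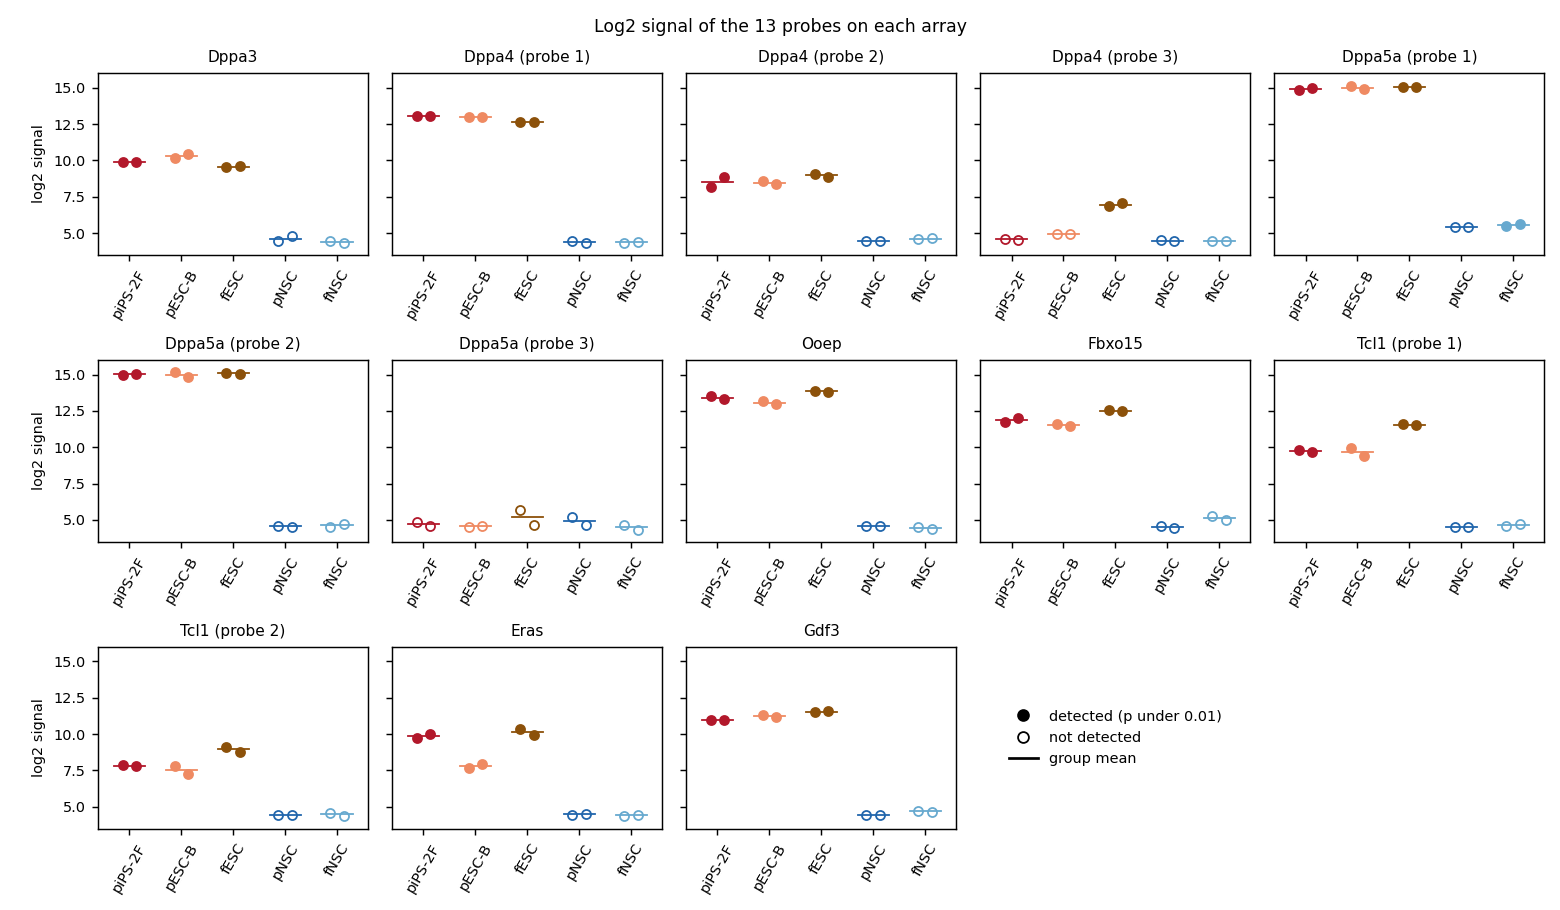
Log2 signal (vertical axis) of each of the 13 probes on each of the 10 arrays, by group. Filled points were detected at p under 0.01, open points were not, and lines are group means. Dppa4 probe 3 was detected in fESC alone and Dppa5a probe 3 on no array, and the other 11 probes were high in piPS-2F, pESC-B and fESC and low in pNSC and fNSC.

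Among the factors of the egg and early embryo, Ooep (ILMN_2645460) gave log2 signals of 13.50 and 13.34 in piPS-2F, 13.16 and 12.98 in pESC-B and 13.91 and 13.77 in fESC, against 4.56 and 4.58 in pNSC and 4.53 and 4.34 in fNSC. The groups did not overlap between pluripotent and neural lines, and no neural array detected it. Where a gene was not detected on any array of the dimmer group, its fold is a lower bound. For this bound each array of the dimmer group was given the lowest signal of any detected probe, or the probe's signal itself if that was higher. Ooep was higher by at least 239-fold in piPS-2F than in pNSC, at least 187-fold in pESC-B than in pNSC and at least 353-fold in fESC than in fNSC (adjusted p = 8.2e-11, 1.0e-10 and 6.7e-11). The bounds given here hold for the offset of 16. With an offset of 50 the whole fitted difference of Ooep in piPS-2F against pNSC was 7.57, below the 8.85 of the main setting and below what its bound states.

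Dppa5a, the neighbour of Ooep on chromosome 9, is a marker of embryonic stem cells and germ cells. Its brightest probe (ILMN_3090545) gave 14.85 and 14.96 in piPS-2F, 15.10 and 14.89 in pESC-B and 15.08 and 15.07 in fESC, against 5.39 and 5.40 in pNSC and 5.47 and 5.62 in fNSC. This is the 1 member probe that was detected in a neural line, on both arrays of fNSC, with intensities of 38.5 and 41.9. The pNSC arrays gave intensities of 44.1 and 45.4, and their detection p of 0.0150 and 0.0125 missed the threshold. The difference between pNSC and fNSC was -0.15 ± 0.14 (SE), with an adjusted p of 0.45. Because fNSC is measured, its fold is not a bound: fESC was 737-fold higher than fNSC (difference 9.52 ± 0.14, adjusted p = 6.7e-11). That fold depends on the processing, as the difference ran from 8.74 to 10.44 over the 18 alternatives. The second probe (ILMN_3018711) gave 15.002 and 15.07 in piPS-2F, 15.16 and 14.85 in pESC-B and 15.14 and 15.04 in fESC, against 4.60 and 4.51 in pNSC and 4.54 and 4.74 in fNSC, and was undetected in both neural lines. By that probe piPS-2F was at least 731-fold higher than pNSC and fESC at least 841-fold higher than fNSC. The third probe (ILMN_2774896) was detected on none of the 10 arrays, with intensities between -14.8 and 36.1, and was not tested.

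Dppa3 (ILMN_1225176), on chromosome 6, gave 9.90 and 9.92 in piPS-2F, 10.16 and 10.42 in pESC-B and 9.54 and 9.59 in fESC, against 4.43 and 4.76 in pNSC and 4.43 and 4.33 in fNSC. It was higher by at least 20.9-fold in piPS-2F than in pNSC (adjusted p = 1.3e-09) and at least 18.3-fold higher in fESC than in fNSC (adjusted p = 1.6e-09). Dppa3 had its highest signal in pESC-B, on both arrays.

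Dppa4, on chromosome 16, read differently by its 3 probes. The brightest (ILMN_2593476) gave 13.06 and 13.06 in piPS-2F, 12.99 and 12.99 in pESC-B and 12.61 and 12.67 in fESC, against 4.48 and 4.28 in pNSC and 4.33 and 4.39 in fNSC. By it, piPS-2F was at least 186-fold higher than pNSC, pESC-B at least 177-fold higher than pNSC and fESC at least 154-fold higher than fNSC, with adjusted p of 6.4e-11, 6.9e-11 and 6.8e-11. The second probe (ILMN_3155408) was detected in the same groups, at 8.20 and 8.85 in piPS-2F, 8.61 and 8.34 in pESC-B and 9.08 and 8.84 in fESC, with lower bounds of 8.04-fold, 7.75-fold and 12.0-fold in the same comparisons. The third probe (ILMN_3076469) gave 4.62 and 4.54 in piPS-2F, 4.92 and 4.96 in pESC-B and 6.83 and 7.08 in fESC, against 4.50 and 4.42 in pNSC and 4.46 and 4.47 in fNSC. It was detected on both arrays of fESC and on no other array, with intensities of 90.6 and 105 in fESC and of at most 7.22 elsewhere. By this probe fESC was at least 2.99-fold higher than fNSC. It passed the filter through fESC alone, so that its differences from fESC are given as a description. The sequences of the probes are not in the files used here, so which transcript each one reads was not tested.

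Fbxo15 (ILMN_2987637), the F-box gene on chromosome 18, gave 11.76 and 12.04 in piPS-2F, 11.62 and 11.45 in pESC-B and 12.53 and 12.50 in fESC, against 4.58 and 4.46 in pNSC and 5.30 and 4.96 in fNSC. No neural array detected it at p under 0.01, although fNSC replicate 1 came close, with a detection p of 0.010 and an intensity of 31.4. It was higher by at least 83.3-fold in piPS-2F than in pNSC, at least 64.7-fold in pESC-B than in pNSC and at least 141-fold in fESC than in fNSC (adjusted p = 3.0e-10, 3.3e-10 and 2.5e-10).

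The members with a role in signalling followed the same split. The brighter probe of Tcl1 (ILMN_2985612), on chromosome 12, gave 9.83 and 9.69 in piPS-2F, 9.92 and 9.39 in pESC-B and 11.60 and 11.51 in fESC, against 4.48 and 4.54 in pNSC and 4.57 and 4.74 in fNSC. It was higher by at least 18.9-fold in piPS-2F than in pNSC and at least 72.5-fold higher in fESC than in fNSC (adjusted p = 3.3e-09 and 6.4e-10). The dimmer probe (ILMN_2638171) gave 7.86 and 7.77 in piPS-2F, 7.83 and 7.28 in pESC-B and 9.11 and 8.78 in fESC, against 4.46 and 4.41 in pNSC and 4.59 and 4.35 in fNSC, with lower bounds of 4.91-fold and 11.9-fold. Both probes were highest in fESC. Eras (ILMN_2844838), on the X chromosome, gave 9.71 and 10.02 in piPS-2F, 7.69 and 7.97 in pESC-B and 10.38 and 9.97 in fESC, against 4.43 and 4.52 in pNSC and 4.38 and 4.46 in fNSC. It was higher by at least 20.3-fold in piPS-2F and at least 4.96-fold higher in pESC-B than in pNSC, and at least 27.9-fold higher in fESC than in fNSC (adjusted p = 3.0e-09, 7.4e-08 and 2.0e-09). Its pluripotent groups split, with pESC-B below the other two on every array. Gdf3 (ILMN_2731407), next to Dppa3 on chromosome 6, gave 11.002 and 10.94 in piPS-2F, 11.31 and 11.18 in pESC-B and 11.50 and 11.61 in fESC, against 4.45 and 4.44 in pNSC and 4.71 and 4.65 in fNSC. It was higher by at least 43.7-fold in piPS-2F than in pNSC, at least 52.9-fold in pESC-B than in pNSC and at least 72.7-fold in fESC than in fNSC (adjusted p = 1.9e-10, 1.6e-10 and 1.3e-10).

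**Figure D2:**
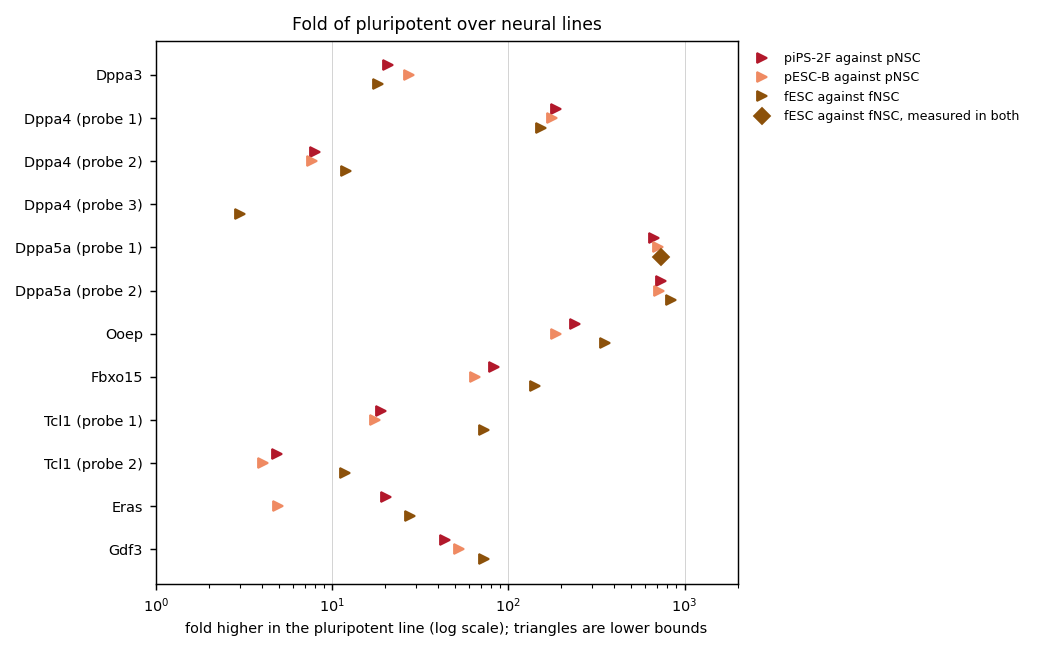
Fold of each pluripotent line over a neural line (horizontal axis, log scale) for the 12 tested probes. Triangles are lower bounds, since the neural line did not detect the probe, and the diamond marks Dppa5a probe 1 in fESC against fNSC, which was measured in both (737-fold). The bounds in piPS-2F against pNSC run from 4.91-fold for Tcl1 probe 2 to 731-fold for Dppa5a probe 2, and no bound could be given there for Dppa4 probe 3.

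The neural lines did not differ in any member by the call rule. In pNSC against fNSC none of the 12 tested probes was called by limma, where 11% of all tested probes were called in either direction. All but the brightest Dppa5a probe were undetected in both lines and had passed the filter through the pluripotent groups. For such probes few calls could arise, so the count is no measured agreement of the neural lines. At an unadjusted p under 0.05, 1 member probe differed, that of Fbxo15, which was undetected in both lines (-0.62 ± 0.16, adjusted p = 0.017). With the authors' processed values, Fbxo15 was called lower in pNSC than in fNSC (-1.48, adjusted p = 0.0043).

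The gain from a neural to a pluripotent line was also compared between the parthenogenetic pair, piPS-2F minus pNSC, and the female pair, fESC minus fNSC. By this difference of differences 3 of 12 probes were called, all lower, where 14.5% of all probes were called lower. They were Dppa4 probe ILMN_3076469 and both Tcl1 probes, all undetected in both neural lines. Each gain is then a lower bound, so the count describes the fit and is no measured difference between gains.

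The RefSeq promoter table of GRCm38.p6, which covers 250 bases before and 50 after a gene's start, held 3 of the members. The promoters of Ooep, Tcl1 and Eras are shown as those that the table holds, and all 3 genes were undetected in the neural lines. Dppa3, Dppa4, Dppa5a and Gdf3 are not in the table, and Fbxo15 is not shown. Each sequence runs 5′ to 3′ along its gene, and all 3 genes lie on the minus strand. Capitals mark matches on either strand to GGGCGG, the GC box, and to GGGNGTGG, a core of the motif bound by Klf factors. The octamer ATGCNAAT, bound by POU factors such as Oct4, was searched in the same way and does not occur in these windows.
Ooep: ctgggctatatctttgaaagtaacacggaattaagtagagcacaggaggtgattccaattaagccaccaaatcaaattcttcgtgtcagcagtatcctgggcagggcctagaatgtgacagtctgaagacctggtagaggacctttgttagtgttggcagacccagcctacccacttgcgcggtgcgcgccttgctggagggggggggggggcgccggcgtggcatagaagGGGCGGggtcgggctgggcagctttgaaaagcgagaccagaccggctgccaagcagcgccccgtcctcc
Tcl1: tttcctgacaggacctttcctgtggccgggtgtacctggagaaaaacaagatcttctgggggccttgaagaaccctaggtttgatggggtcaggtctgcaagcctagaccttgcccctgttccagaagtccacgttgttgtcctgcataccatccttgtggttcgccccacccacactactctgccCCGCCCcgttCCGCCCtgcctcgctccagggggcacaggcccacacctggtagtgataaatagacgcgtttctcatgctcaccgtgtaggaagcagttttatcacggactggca
Eras: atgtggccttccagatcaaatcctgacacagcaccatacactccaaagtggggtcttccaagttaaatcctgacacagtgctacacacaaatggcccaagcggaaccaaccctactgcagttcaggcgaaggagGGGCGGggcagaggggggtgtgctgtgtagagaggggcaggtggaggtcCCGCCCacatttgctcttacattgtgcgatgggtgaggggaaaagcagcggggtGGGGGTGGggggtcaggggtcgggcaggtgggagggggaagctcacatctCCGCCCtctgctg
The windows are chr9:78378539-78378838 for Ooep, chr12:105222688-105222987 for Tcl1 and chrX:7928558-7928857 for Eras. The Ooep window holds 1 GC box, that of Tcl1 2 and that of Eras 3. The Klf core occurs once, in the Eras window, 13 to 6 bases before the start. Of 32841 promoters of the same length, 35.7% hold the GC box, 17.6% the Klf core and 3.15% the octamer. The windows hold 15 (Ooep), 11 (Tcl1) and 8 (Eras) CpG dinucleotides, against a median of 7 over all promoters. A match describes the letters of the window and is not a binding site.

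Among the pluripotent lines most members lay close together, and 2 genes stood out by all of their probes. In piPS-2F against pESC-B, which share a parental origin and have arrays of similar brightness, 1 of 12 probes was called, as higher, where 4.47% of all probes were called higher and 4.65% lower. In piPS-2F against fESC, 3 probes were called, all lower (background 13% lower and 11.9% higher). In pESC-B against fESC, 4 probes were called, all lower (background 13.8% and 13.6%). In each comparison with fESC, 1 of the called probes was Dppa4 probe ILMN_3076469. It passed the filter through fESC alone, so it had to be lower. The other called probes were both probes of Tcl1, joined by Eras in pESC-B against fESC. The 3 comparisons share arrays in pairs. The medians over the 12 probes were 0.06, -0.43 and -0.63, beside -0.00014, 0.13 and 0.12 over all probes. The shares of calls that were higher, 49.0%, 47.8% and 49.6%, became 35.6%, 27.2% and 40.3% with median scaling. The counts of member probes stayed at 1 and 3 with median scaling in the first pair of comparisons and came to 6 in the third, where Ooep (-1.13) and Fbxo15 (-1.18) passed the 2-fold minimum.

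**Figure D3:**
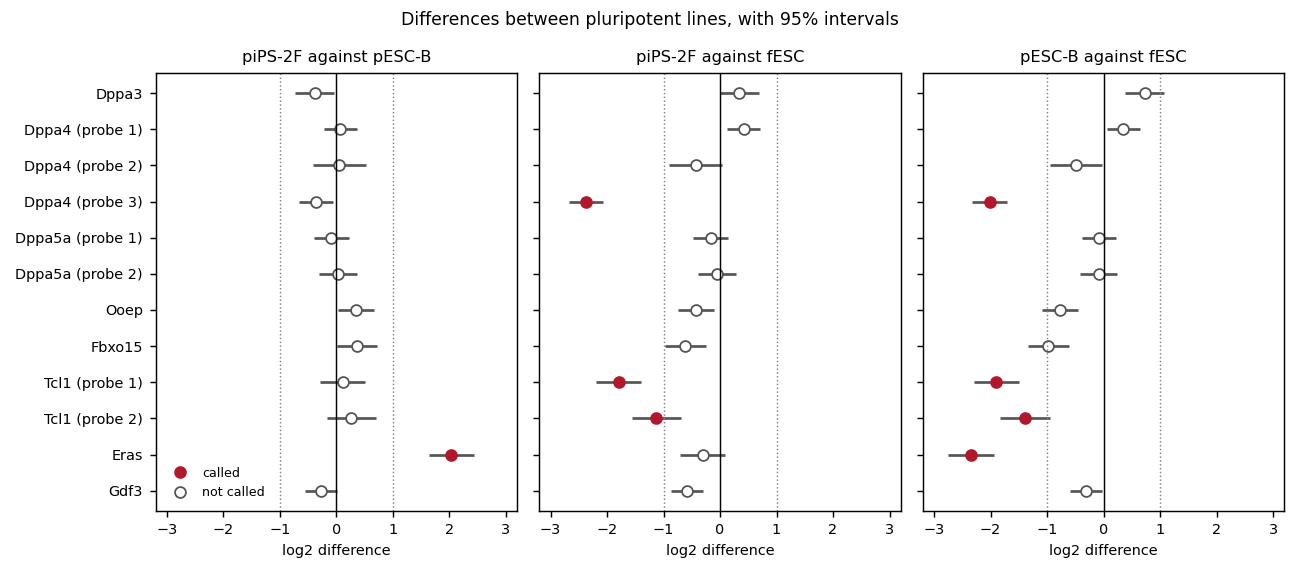
Differences on the log2 scale between pluripotent lines (horizontal axis) for the 12 tested probes, with 95% intervals from the fit. Red points were called, open points were not, and dotted lines mark a 2-fold difference. Eras was the only probe called in piPS-2F against pESC-B, and Dppa4 probe 3 and both Tcl1 probes were called in both comparisons with fESC. Dppa4 probe 3 passed the filter through fESC alone, so its calls are a description.

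Eras was the member that separated piPS-2F from pESC-B. Its intensities were 482 and 607 in piPS-2F, against 114 and 122 in pESC-B, and 1320 and 928 in fESC. On the log2 scale piPS-2F was higher than pESC-B by 2.03 ± 0.18 (SE, n = 2 arrays each), or 4.10-fold, with an adjusted p of 4.1e-05 from limma. The call held under all 18 alternatives, with differences from 1.88 to 2.21. pESC-B was lower than fESC by a difference of -2.34 ± 0.18 (adjusted p = 4.1e-06), and piPS-2F differed from fESC by -0.31 ± 0.18 (adjusted p = 0.17, 95% interval -0.71 to 0.09). The order was fESC, piPS-2F, pESC-B, and the first pair overlapped.

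Other genes of the X chromosome were also low in pESC-B. Over 328 measured X-linked genes the median difference was 0.29 in piPS-2F against pESC-B and -0.32 in pESC-B against fESC, beside -0.02 and 0.15 over all 9220 genes. In pESC-B against fESC 27.1% of them were called lower, where 12.8% of all genes were. Of the 3 protein-coding genes on either side of Eras in the RefSeq order, 5 were measured. All 5 were called lower in pESC-B than in fESC, among them Pqbp1 at -2.02 ± 0.28 (adjusted p = 0.00019) and Hdac6, a cytoplasmic deacetylase gene, at -1.85 ± 0.17 (adjusted p = 1.2e-05). In piPS-2F against pESC-B only Pqbp1 of the 5 was called, at 1.41 ± 0.28 (adjusted p = 0.005), and in piPS-2F against fESC Pcsk1n, Hdac6 and Glod5 were called lower while Eras was not. Glod5 passed the filter through fESC alone and had to be lower in the other lines, so its calls are a description. The part of the chromosome in the Eras result was not tested.

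Tcl1 separated fESC from both parthenogenetic pluripotent lines. The brighter probe had intensities of 532 and 471 in piPS-2F and 679 and 379 in pESC-B, against 3357 and 3014 in fESC. On the log2 scale it differed by -1.79 ± 0.18 in piPS-2F against fESC and by -1.90 ± 0.18 in pESC-B against fESC (adjusted p = 2.2e-05 and 1.4e-05). The dimmer probe gave -1.13 ± 0.20 and -1.39 ± 0.20 (adjusted p = 0.00082 and 0.00019). Both probes thus read a lower signal, and no array of fESC overlapped those of the other lines. Without fESC replicate 1 the dimmer probe differed by -0.96 in piPS-2F against fESC, under the 2-fold minimum. Between piPS-2F and pESC-B the brighter probe differed by 0.11 ± 0.18 (adjusted p = 0.7, 95% interval -0.29 to 0.51).

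For Dppa4 the probes disagreed in direction. By the third probe piPS-2F was at least 2.81-fold lower than fESC and pESC-B at least 2.69-fold lower. The brightest probe differed by 0.42 ± 0.13 and 0.35 ± 0.13 in the same comparisons, above 0 in both and under the 2-fold minimum (adjusted p = 0.02 and 0.041). The second probe gave -0.43 ± 0.21 and -0.49 ± 0.21 (adjusted p = 0.1 and 0.068). The difference between the probes was not tested.

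The remaining members differed by less than 2-fold between pluripotent lines. Ooep differed by 0.35 ± 0.14 in piPS-2F against pESC-B, by -0.42 ± 0.14 in piPS-2F against fESC and by -0.77 ± 0.14 in pESC-B against fESC (adjusted p = 0.093, 0.029 and 0.001), and its arrays did not overlap between any of these groups. Fbxo15 followed the same order, with 0.36 ± 0.16, -0.62 ± 0.16 and -0.98 ± 0.16 (adjusted p = 0.12, 0.0085 and 0.00053). The last of these sat at the 2-fold limit and was called under 3 of 18 alternatives, with median scaling, with the authors' processed values and without pESC-B replicate 1. Gdf3 had its lowest signals in piPS-2F, with -0.27 ± 0.13 against pESC-B and -0.59 ± 0.13 against fESC (adjusted p = 0.14 and 0.0031). Dppa3 ran the other way from Ooep and Fbxo15, at 0.73 ± 0.16 in pESC-B against fESC (adjusted p = 0.0026) and -0.39 ± 0.16 in piPS-2F against pESC-B (adjusted p = 0.093). The brightest Dppa5a probe differed by -0.09 ± 0.14, -0.17 ± 0.14 and -0.08 ± 0.14 in the 3 comparisons (lowest adjusted p 0.32). Its intensities before normalization were 24136 and 26981 in piPS-2F, 30975 and 23180 in pESC-B and 40454 and 37221 in fESC, on arrays that were brighter as a whole in fESC.

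Ooep and Dppa5a are adjacent on chromosome 9, and Gdf3 and Dppa3 are adjacent on chromosome 6, with Nanog as the next protein-coding gene. Of the 7 genes from Mfap5 to Foxj2 in this stretch that were measured, 5 were called higher in all 3 pluripotent lines, namely Mfap5, Gdf3, Dppa3, Nanog and the glucose transporter gene Slc2a3. Of all tested probes, 26.8% (piPS-2F), 25.1% (pESC-B) and 23.5% (fESC) were called higher. All but Slc2a3 were undetected in both neural lines, and a gene that passed the filter in this way had to differ. The count describes these genes, 2 of them members, and shared control was not tested. Nanog, a core transcription factor of pluripotent cells, was higher by at least 84.2-fold in piPS-2F than in pNSC. Slc2a3, detected in all 5 groups, differed by 4.85 ± 0.13 in piPS-2F against pNSC and by 5.93 ± 0.13 in fESC against fNSC. The genes called higher were not an unbroken run. Apobec1, a cytidine deaminase gene between Mfap5 and Gdf3, differed by -0.40 ± 0.20 in piPS-2F against pNSC (adjusted p = 0.093) and was lower in pESC-B than in pNSC (-1.94 ± 0.20). In fESC it was undetected, and at least 2.38-fold lower than in fNSC. Foxj2 was lower in pESC-B than in pNSC (-1.46 ± 0.21) and in fESC than in fNSC (-1.03 ± 0.21). Mfap5, undetected in both neural lines, was higher by at least 1.501-fold in piPS-2F than in pNSC, 1.03-fold in pESC-B than in pNSC and 1.17-fold in fESC than in fNSC. Around Ooep and Dppa5a only Mto1 was measured besides the members, and around Tcl1 none of the neighbours passed the filter. Dppa2, the partner and neighbour of Dppa4, has no probe under that symbol.

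**Figure D4:**
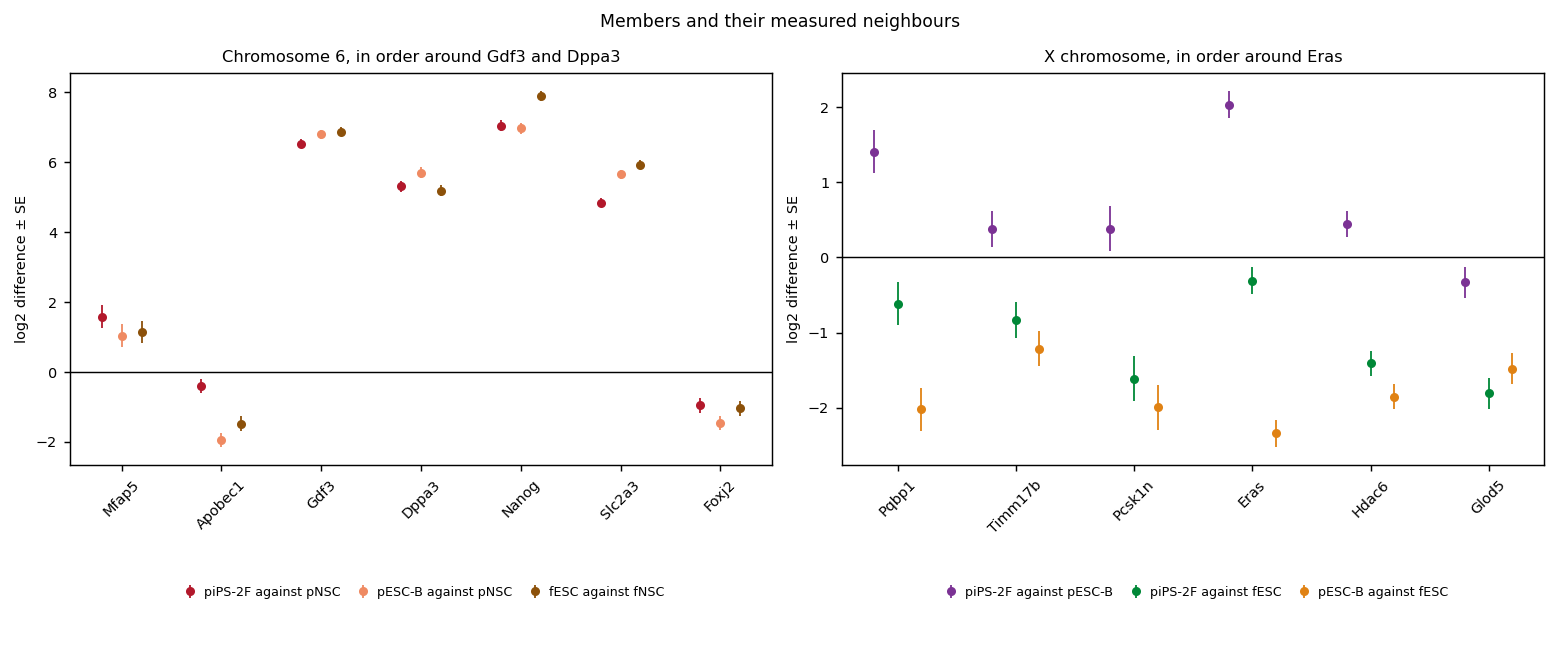
Log2 differences with their SE (vertical axis) for members and the measured genes beside them, in chromosomal order along the horizontal axis. On the left, Gdf3, Dppa3, Nanog and Slc2a3 lie above 4 in all 3 comparisons of pluripotent with neural lines. Of these, all but Slc2a3 were undetected in both neural lines, so their fitted differences are no measured folds. On the right, all 6 genes around and including Eras lie below 0 in pESC-B against fESC. Of these, Glod5 passed the filter through fESC alone and had to lie below 0.

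Related genes were looked at through lists chosen with earlier results of these data known. Among 14 tested candidates of the early reprogramming screens other than the members, 9 were higher and 2 lower in piPS-2F than in pNSC (median 3.18, beside 0.03 over all genes, of which 27% were called higher and 26.4% lower). All 14 were detected on each piPS-2F array, but only 7 and 4 on the arrays of pNSC. A gene that passed the filter through pluripotent lines alone had to differ, so the count and median describe these genes. The largest rises were in Dnmt3l, a cofactor of DNA methylation, at least 308-fold, Pou5f1, the Oct4 gene, at least 187-fold, and Sall4, at least 124-fold. Whether the Pou5f1 probe separates the introduced from the endogenous transcript was not tested. The genes that fell, by their brightest probe, were Stat3, the transducer of LIF signals, with a difference of -2.13 ± 0.16, and Ctnnb1, the beta-catenin gene, with -1.54 ± 0.15. Another Stat3 probe (ILMN_2589790) gave mean signals of 9.19 in piPS-2F and 9.66 in pNSC, less than 2-fold apart. The size of the fall in Stat3 thus depends on the probe. In fESC against fNSC again 9 were higher and 2 lower (median 4.46, beside 0.02 over all genes, of which 23.9% were called higher and 24.8% lower). Each fNSC array detected 6 of the 14, so the same limit holds there.

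Of the oocyte complex around Ooep, 4 of 10 listed genes were tested. Khdc3, a KH-domain gene of the same complex, was higher by at least 6.59-fold in piPS-2F than in pNSC (adjusted p = 8.9e-07) and at least 16.2-fold higher in fESC than in fNSC (adjusted p = 1.0e-07). Like Eras, it had its lowest pluripotent signal in pESC-B, at -3.50 ± 0.26 against fESC, where 1 of 2 pESC-B arrays detected it. In piPS-2F it was higher than in pESC-B by 2.35 ± 0.26 (adjusted p = 0.00015). Tle6, which encodes another subunit, was detected in all 5 groups and was lower in fESC than in fNSC (-2.40 ± 0.14). The 3 probes of Nlrp5, named here after its values were seen, which encodes a central protein of the complex, were detected on no array. Of 14 listed oocyte genes 4 were tested. All 4 had higher signals in piPS-2F than in pNSC (background 27%), led by the zona pellucida gene Zp3, at least 3.92-fold. On the pNSC arrays 1 of the 4 was detected, and a gene that passed the filter through pluripotent lines alone had to differ. In piPS-2F against pESC-B 3 of the 4 oocyte genes were higher, including the oocyte growth factor gene Gdf9 at 2.78 ± 0.27 (adjusted p = 6.4e-05, background 4.5%). Genes of the 2-cell embryo, 4 tested of 8, were lower in pESC-B than in fESC for all 4, with Zscan4c at least 47.1-fold lower (background 12.8%). None of the 4 was detected on an array of pESC-B, pNSC or fNSC. They passed the filter through fESC or piPS-2F, so the count describes these genes and supports nothing further.

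Among genes around Gdf3, 7 of 11 tested genes of Nodal and activin signalling were called in piPS-2F against pNSC, all higher (median 2.62, beside 0.03 over all genes, of which 27% were called higher). Of these 7, 6 were undetected in pNSC. Lefty1 and Lefty2, which encode secreted inhibitors of Nodal, were at least 61.0-fold and 49.6-fold higher, and Nodal at least 15.5-fold. In piPS-2F against fESC 1 of the 11 was called higher and 1 lower, where 11.9% of all tested probes were called higher and 13% lower. The lower one was the Nodal co-receptor gene Tdgf1, by 3.73 ± 0.23 (adjusted p = 1.1e-06). Its mean signal in pESC-B was also low, at 6.90, beside 6.79 in piPS-2F and 10.53 in fESC. Genes of Ras and Akt signalling moved both ways, with 2 of 10 higher and 2 lower in piPS-2F than in pNSC (median -0.19), below the shares of all genes, 27% higher and 26.4% lower. The regulatory subunit gene of phosphoinositide 3-kinase, Pik3r1, was lower, with a difference of -4.65 ± 0.16, and the catalytic subunit gene Pik3cb was higher, with 1.93 ± 0.14. Of the relatives of Tcl1 and of the Dppa genes, 1 of 8 was tested, Mtcp1, which encodes another Akt-binding protein. It was undetected in pNSC and higher by at least 1.27-fold in piPS-2F. Mtcp1 passed the filter through piPS-2F alone, so this difference is a description. Probes for the neighbours Tcl1b3, Tcl1b4 and Tcl1b5 were detected on no array.

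The core SCF genes around Fbxo15 were detected on all arrays. Of Skp1, Cul1 and Rbx1, Skp1 and Cul1 had lower signals in piPS-2F than in fESC, with differences of -1.94 ± 0.13 and -2.11 ± 0.17 (adjusted p = 2.0e-06 and 6.1e-06, background 12.2%). Of 4 tested DNA methylation genes around Dppa3, Dnmt3l, Dnmt3b and Uhrf1 were called higher in piPS-2F than in pNSC, where 27% of all genes were. Dnmt3l was undetected in pNSC and passed the filter through pluripotent lines alone, so it had to differ. Dnmt3b, a de novo methyltransferase gene, rose by 7.40 ± 0.20. Among 9 tested germ cell genes, all 9 had higher signals in piPS-2F than in pNSC, where 27% of all genes were called higher. Of the 9, 8 were undetected in both neural lines, and a gene that passed the filter in this way had to differ. In fESC against fNSC 6 were higher and 1 lower, beside 23.9% and 24.8% of all genes. Tfap2c, a gene of germ cell precursors and trophoblast, was higher by at least 98.9-fold in piPS-2F.

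Markers of other cell types were read on the same arrays. Of 5 tested feeder fibroblast markers, 4 were detected on each array of piPS-2F and pESC-B, 5 in fESC and 2 on each array of the neural lines. Their summed intensity was 2901 to 3843 in piPS-2F, 1499 to 1766 in pESC-B, 5204 to 6074 in fESC, 1561 to 1652 in pNSC and 217 to 264 in fNSC. It was thus lowest among the pluripotent lines in pESC-B, the sorted group. All summed intensities here are from before normalization, and the fESC arrays were brighter as a whole than those of piPS-2F and pESC-B. In the pluripotent lines the brightest of these fibroblast markers was Acta2. Its brightest probe had mean log2 signals of 12.13 in piPS-2F, 11.01 in pESC-B and 12.13 in fESC. The fibroblast markers Postn and Col1a2 were detected on no array. Of 8 listed trophectoderm markers 6 were tested, all of which passed the filter through the pluripotent groups alone. Of these, 5 or 6 were detected on each pluripotent array and 0 on the neural arrays. Their summed intensities were 3126 to 3501 in piPS-2F, 4541 to 5054 in pESC-B, 5082 to 5141 in fESC, 19 to 39 in pNSC and 29 to 37 in fNSC. The untested Elf5 and Hand1 were detected on no pluripotent array. Of 8 listed extraembryonic endoderm markers 4 were tested. Of these 4, 3 or 4 were detected on each pluripotent array and 1 or 2 on the neural ones. Their summed intensities were 100 to 139 in piPS-2F, 386 to 554 in pESC-B and 338 to 371 in fESC, and higher in pNSC, at 1011 to 1100, and fNSC, at 408 to 559, than in piPS-2F. The untested Sox17, Foxa2 and Afp were detected on no pluripotent array, and Gata4 on only 1, of pESC-B. The neural stem cell markers had summed intensities of 318 to 334 in piPS-2F, 2161 to 2224 in pESC-B and 787 to 798 in fESC, against 75775 to 83988 in the neural lines, with 2 to 4 of the 10 detected on each pluripotent array. Nes and Slc1a3 were detected on all of these arrays, Olig1 on all but 1, and Bcan, Fabp7, Gfap, Hes5 and Sox9 on none. Primed epiblast markers, 7 tested, were detected 4 to 7 at a time in piPS-2F and pESC-B and 3 at a time in the other groups, with summed intensities of 11562 to 12040 in piPS-2F, 9848 to 13416 in pESC-B and 8311 to 9201 in fESC. The part of these cells in the members' differences was not tested.

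The genes nearest to each member in pattern were found by the root mean square distance between the 5 group means, each centred on its own mean, over 3732 genes with a range of at least 2 on the log2 scale. For the brightest probe of Dppa3 they were Lrrc34 (0.17) and Fblim1 (0.21), where the number is the distance in log2 units. Dppa4 lay nearest to Dnmt3l (0.27) and Sall4 (0.36), Dppa5a to Dnmt3l (0.30) and Pou5f1 (0.62), and Ooep to Pou5f1 (0.29) and Dnmt3l (0.34). Fbxo15 lay nearest to Nanog (0.20) and Mylpf (0.29), and Gdf3 to Rbmxl2 (0.16) and Lefty2 (0.21). Tcl1 had the closest partner of all members, Tbx3 (0.13), a T-box transcription factor gene, followed by Aqp3 (0.16), an aquaporin gene. Both shared the step between fESC and the parthenogenetic pluripotent lines. Eras had the least close first partner, Ddc (0.36), the gene of DOPA decarboxylase, followed by Gsta3 (0.36). Among the members themselves, Fbxo15 and Gdf3 lay closest (0.35), followed by Dppa5a and Ooep (0.37), and Dppa5a and Eras lay farthest apart (2.43). These distances are dominated by the step between neural and pluripotent lines, and over 5 groups they say nothing of shared control.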

How the data were processed

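RNA of 5 mouse cell populations was hybridised to single-colour Illumina bead arrays, 2 per population, from 400 ng of total RNA after linear amplification with biotin, per the labels. Depth does not apply to arrays, and their number limits the precision. The deposited table holds an intensity and a detection p-value per probe and array. The intensities are background-subtracted, since 22.9% to 28.3% per array are below 0. Per the submitters' processing notes, BeadStudio 3.2, RMA and lumi were used, in roles not stated. The authors' processed values were taken as log2 from their range, with the base not stated, and served as an alternative. Columns were matched to samples by title, and the female embryonic stem cell titles carry an extra B.

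Intensities were corrected with neqc of limma 3.58.1 (R 4.3.3), with background from the detection p, an offset of 16 and quantile normalization. A probe entered the tests if both arrays of some group detected it at p under 0.01, which left 13564 of 25697. limma's lmFit and eBayes took all 10 arrays together, with a mean for each group (5 residual degrees of freedom), and p-values were adjusted by Benjamini-Hochberg over all kept probes. The scripts were tested on simulated data. Of the probes, 23978 have 1 symbol in GEO's platform annotation, 1719 have none and 0 have several. For gene-level counts the brightest probe stood for a gene. RefSeq GRCm38.p6 gave promoters, chromosomes and gene order.

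The members and the 16 gene lists were chosen with earlier results of these data known. The text names every member probe, at most the 3 largest called differences in each direction per list and comparison, the 2 genes nearest in pattern and the 3 genes on either side of a member. Nlrp5 and the markers undetected in a line were named after their values were seen. Pdk1, whose symbol means another gene than intended, was removed from the Ras and Akt list before its values were seen. Alternatives changed the offset, the background correction, the scaling, the processed values, the filter, the arrays fitted, a replicate block, and left out each array in turn. No label or header used here names a batch.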

Additional observations from a re-analysis of the deposited data

Results flagged for a closer look

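In the fit, the gain from the neural to the pluripotent line differed between the parthenogenetic pair (piPS-2F minus pNSC) and the female pair (fESC minus fNSC) for 3 member probes, by limma's test of the difference itself with Benjamini-Hochberg adjustment over 13564 probes. No array of pNSC or fNSC detected these probes, so each gain has only a lower bound and the values below are fitted ones. For Dppa4 probe ILMN_3076469 the difference of differences was -2.37 ± 0.19 (SE). The probe was detected in fESC alone and passed the filter through it, so this value is a description. For Tcl1 the brighter probe, ILMN_2985612, gave -1.65 ± 0.25 (adjusted p = 0.00065) and kept its call under all 18 alternatives. The dimmer one, ILMN_2638171, gave -1.09 ± 0.28 (adjusted p = 0.01) and lost its call under 4 of them. Both pairs also differ in array brightness, in parental origin and in how the pluripotent line was made, and these cannot be told apart.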

How the results depend on the processing

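Each result was recomputed under 18 alternatives. With 2 arrays per group that may be technical duplicates, differences between cell preparations cannot be judged. An offset of 50 lowered the number of probes called over the whole array to 660 in piPS-2F against pESC-B (main setting 1237), 2242 in piPS-2F against fESC (3375) and 933 in pNSC against fNSC (1497). With the authors' processed values 1 member probe was called in pNSC against fNSC, against 0 in the main setting. Leaving out each array gave 2 to 3 called member probes in piPS-2F against fESC and in the difference of differences, and 4 to 5 in pESC-B against fESC, and left the member counts of the other 5 comparisons as they were. The difference of differences of Tcl1 probe ILMN_2638171 lost its call without background correction (-1.09, adjusted p = 0.086) and with the authors' processed values (-1.12, adjusted p = 0.096), at a size no smaller than the -1.09 of the main setting. It also lost it without fESC replicate 1 (-0.92) and without fNSC replicate 2 (-0.97), under the 2-fold minimum. The cause was not tested.

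Reversed signs occurred in uncalled differences near 0. With median scaling, Dppa4 ILMN_3155408 (-0.12) and Tcl1 ILMN_2985612 (-0.010) reversed in piPS-2F against pESC-B, and Dppa5a ILMN_3018711 (0.028) in piPS-2F against fESC. Over the fits that left out each array, the difference in piPS-2F against pESC-B ran from -0.27 to 0.38 for Dppa4 ILMN_3155408, from -0.12 to 0.19 for Dppa5a ILMN_3018711, from -0.19 to 0.015 for Dppa5a ILMN_3090545, from -0.0092 to 0.54 for Tcl1 ILMN_2638171 and from -0.16 to 0.37 for Tcl1 ILMN_2985612. In pESC-B against fESC it ran from -0.24 to 0.066 for Dppa5a ILMN_3018711 and from -0.18 to 0.025 for Dppa5a ILMN_3090545.

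Replicate numbers did not pair the samples, since the correlations of same-numbered deviations over 10 pairs of groups ran from -0.104 to 0.0986. With the replicate number as a block, 1235 probes were called in piPS-2F against pESC-B and 3375 in piPS-2F against fESC, and the counts of member probes were the same in all 8 comparisons. Probes below the detection threshold in a neural line give a lower bound and no fold.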
